A study of Mus musculus with 12 samples.

Results

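Smooth muscle cells and pericytes, the mural cells that wrap the vessels of the heart, were followed through 10 genes: Acta2, Myh11, Cnn1, Tagln, Rgs5, Pdgfrb, Notch3, Cspg4, Kcnj8 and Abcc9. They were the rows of the deposited table whose gene symbol matched one of these names, 10 of 17052 genes, and all 10 passed the filter on low values. RNA came from the whole left ventricle of C57BL/6 mice aged 12 weeks, with 3 separate mice in each of 4 groups. TAC+pimobendan mice had transverse aortic constriction (TAC) at 8 weeks, in which a clip narrows the aortic arch and loads the ventricle with pressure, and received pimobendan at 1 mg/kg/day for 4 weeks. TAC+control mice had the constriction and no pimobendan. Sham+pimobendan mice had the sham operation without a clip and the same dose of the drug. Sham+control mice had the sham operation and no pimobendan. Pimobendan sensitises cardiac troponin to calcium and inhibits phosphodiesterase 3, which smooth muscle also uses to break down cyclic nucleotides. The study asked how the drug alters the response of the ventricle to pressure overload.

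Arteries and arterioles of the heart carry smooth muscle, whose contractile genes are switched on by serum response factor (SRF) and its partner myocardin at promoter elements called CArG boxes. Capillaries carry pericytes, which are recruited by platelet-derived growth factor B through the receptor PDGFRB and depend on NOTCH3 for their upkeep. Both cell types set vessel tone, partly through an ATP-sensitive potassium channel built from the Kcnj8 and Abcc9 products.

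Totals and gene numbers were compared between libraries. FPKM (fragments per kilobase of transcript, scaled to library size) summed to 593203 to 643478 per library, which does not measure depth. At least 1 FPKM was reached by 10809 to 11292 genes. These were 10809 to 10859 in TAC+control, 11161 to 11292 in TAC+pimobendan and 10904 to 11215 in the sham groups. Relative depth, judged from the steps of values presumed to be single fragments, was 0.883 to 1.10 across libraries, and absolute depth was not used here. Libraries differed in how their values followed GC content. With each gene's log2 value in a library taken relative to its average over the 12, the rank correlation with transcript GC content (Spearman's rho, over genes, which are not independent replicates) was -0.195, -0.504 and -0.523 in TAC+pimobendan and 0.126, 0.00684 and 0.286 in TAC+control. It was 0.144, 0.354 and 0.529 in Sham+pimobendan and -0.347, 0.0776 and 0.455 in Sham+control.

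By mean FPKM over the 12 libraries, Rgs5 came first at 102 (80.1 to 143 over libraries), followed by Acta2 at 79.5 (21.1 to 187), Abcc9 at 59.8 (50.5 to 74.4) and Kcnj8 at 27.7 (23.2 to 31.1). Pdgfrb stood at 24.4 (19.5 to 28.2), Tagln at 15.4 (8.45 to 22.6), Notch3 at 9.26 (7.22 to 11.2), Myh11 at 5.67 (3.86 to 8.37), Cspg4 at 5.04 (3.69 to 6.26) and Cnn1 at 1.24 (0.44 to 2.23). Ranges of neighbours in this order overlapped across libraries, except those of Abcc9 and Kcnj8 and those of Cspg4 and Cnn1. Within each library, Pdgfrb also lay above Tagln, and Notch3 above Myh11. Acta2 varied most, with the highest library 8.85 times the lowest, and Cnn1 next at 5.07 times. Kcnj8 varied least, at 1.34 times.

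**Figure D1:**
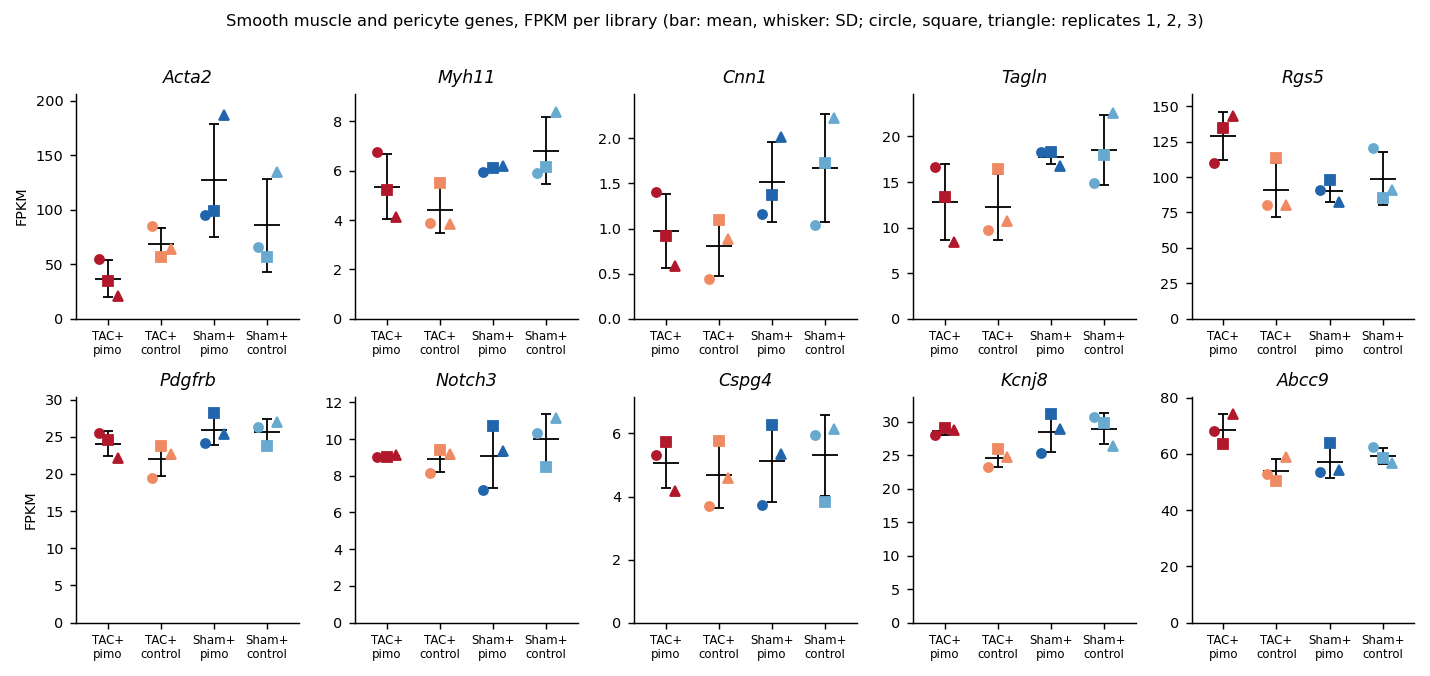
FPKM of the 10 genes (y axes from 0) in each library of the 4 groups (x axes); points are libraries, the bar is the group mean and the whisker the SD of 3 mice. Acta2 is lowest in the 3 TAC+pimobendan libraries (21.1 to 54.9), which lie below all Sham+pimobendan libraries (94.8 to 187), while Rgs5 is at 110 to 143 in TAC+pimobendan and 82.6 to 98.1 in Sham+pimobendan.

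Acta2, the smooth muscle alpha-actin, was the only one of the 10 genes to pass the test in any comparison. It fell in TAC+pimobendan relative to Sham+pimobendan, by a log2 fold change of -1.79 ± 0.37 (SE; limma adjusted p = 0.0314). That is 1 of 10 genes called, against 4.89% of the 11415 genes tested (4.64% called higher and 0.245% called lower). Unadjusted p was under 0.05 for 3 of the 10 genes (Acta2, Rgs5 and Abcc9) and for 22.9% of all genes. Rgs5, a pericyte gene, stood at 0.50 ± 0.16 in the same comparison and was not called (limma adjusted p = 0.0776). The groups did not overlap for Rgs5, which was higher in every TAC+pimobendan library (18.6% of all tested genes were), nor for Acta2 and Tagln, which were lower in every one (9.35% of all tested genes), 3 of 10 genes against 27.9% of all. The median log2 fold change of the 10 genes was -0.05, beside -0.01 for all genes tested.

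Pressure overload without the drug left all 10 genes with a negative log2 fold change in TAC+control relative to Sham+control, and no gene was called. Fold changes ran from -0.57 for Tagln to -0.12 for Rgs5, with a median of -0.22, beside -0.06 for all genes, of which 65.1% were negative. None of the 11415 genes passed in limma (0% called), and 951 had an unadjusted p under 0.05 (8.33%). Of the 10 genes, 5 were among them: Myh11, Cnn1, Tagln, Kcnj8 and Pdgfrb. Myh11, Pdgfrb and Kcnj8 were lower in every TAC+control library than in any Sham+control library, as were 9.74% of all tested genes, and 12.7% were apart in either direction. All 7 endothelial markers also had negative log2 fold changes, none called: Pecam1, Cdh5, Kdr, Tek, Tie1, Esam and Cldn5, which together summed to 255 to 351 FPKM in TAC+control and 354 to 457 FPKM in Sham+control, and their part in these values was not tested. In RNA of whole tissue, fewer mural cells, less RNA per mural cell and changes in other cells cannot be told apart.

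Pimobendan in loaded ventricles gave a negative log2 fold change for Acta2 and positive ones for the other 9 genes. Tagln and Notch3 turned negative with median-ratio scaling, Tagln also after correction for GC content, and Tagln, Notch3, Cnn1 and Cspg4 with quantile normalization. Without certain single libraries, Tagln, Notch3, Cnn1 and Cspg4 were negative as well. None of the 10 was called, and 34% of all tested genes were negative. In TAC+pimobendan relative to TAC+control the log2 fold change was -0.96 ± 0.37 for Acta2 (limma adjusted p = 0.122), 0.51 ± 0.16 for Rgs5 (limma adjusted p = 0.0712) and 0.34 ± 0.09 for Abcc9 (limma adjusted p = 0.0557). Of all tested genes, 373 or 3.27% were called. Without any adjustment, limma p was under 0.05 for 4 of the 10 genes (Acta2, Rgs5, Abcc9 and Kcnj8) and for 26.6% of all genes. Kcnj8 and Abcc9 were higher in every TAC+pimobendan library than in any TAC+control library (23.3% of all genes), and Acta2 was lower (6.64%). With the replicate number as a block, 1 gene in all was called and still none of these 10. The median of the 10 genes was 0.12 on the log2 scale, beside 0.10 for all genes.

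In unloaded ventricles the drug gave no call at all. Relative to Sham+control, Sham+pimobendan had a log2 fold change of 0.59 ± 0.37 for Acta2 (limma adjusted p = 0.91), and the other 9 genes lay between -0.13 and 0.01. Limma called 0% of all genes and none of the 10. Unadjusted p was under 0.05 for 518 genes (4.54%) and for 0 of the 10. No gene of the 10 separated the groups, while 11.1% of all tested genes did, 4.98% by being lower.

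The difference between the drug's effects in the 2 surgeries was tested as an interaction, the effect of TAC under pimobendan minus that without it. It was -1.55 ± 0.52 for Acta2 (limma adjusted p = 0.133), 0.62 ± 0.22 for Rgs5 (0.148) and 0.39 ± 0.13 for Abcc9 (0.133), all limma adjusted p. Limma called 0% of genes for the interaction, and 20.3% had an unadjusted p under 0.05, 3 of the 10 mural genes included. These comparisons share groups, so their values stand side by side and do not count as separate evidence.

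**Figure D2:**
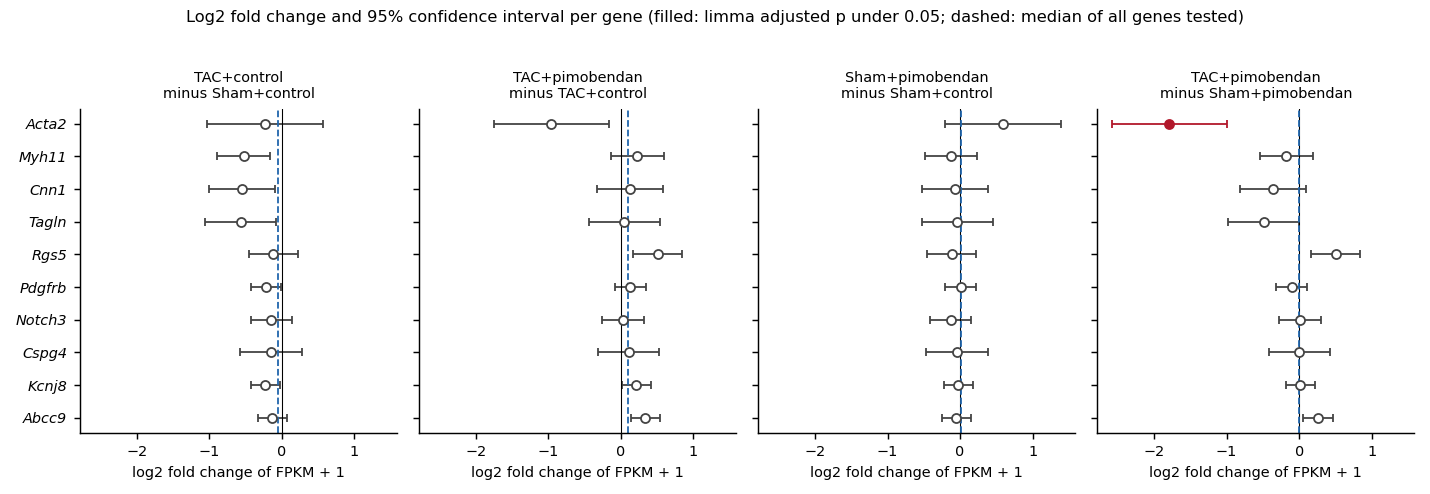
Log2 fold change of FPKM + 1 (x axis) for each gene (rows) in the 4 comparisons, as point and 95% confidence interval from limma; a filled point passed at an adjusted p under 0.05, and the dashed line is the median of all genes tested. Acta2 in TAC+pimobendan minus Sham+pimobendan, at -1.79, is the only filled point.

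Among the contractile genes, Acta2 encodes the actin of the smooth muscle thin filament (NCBI Gene 11475; GRCm38 chromosome 19, 34240336 to 34255585, minus strand). It had 54.9, 34.4 and 21.1 FPKM in TAC+pimobendan, against 85.2, 56.6 and 63.8 FPKM in TAC+control. It had 94.8, 99.1 and 187 FPKM in Sham+pimobendan, against 66.1, 56.7 and 135 FPKM in Sham+control. The 3 TAC+pimobendan values were below every other library, and 1 library of each sham group stood well above its group's other two. Group means were 36.8 ± 17.0 FPKM in TAC+pimobendan, 68.5 ± 14.9 in TAC+control, 127 ± 51.8 in Sham+pimobendan and 85.8 ± 42.5 in Sham+control (SD, n = 3 each). TAC+control and Sham+control overlapped, and their log2 fold change was -0.24 (95% confidence interval -1.03 to 0.56).

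The promoter of Acta2 is the textbook target of SRF, so the 250 bases before the start in RefSeq's promoter windows (GRCm38.p6) were searched for the CArG box, a pattern that reads alike on both strands: CC, then 6 bases of which at most 1 is not A or T, then GG. RefSeq's window for Acta2 uses a start at 34255373, which lies 212 bases inside the outer end of the gene, so the window overlaps the gene span of a longer transcript. It held 2 matches, beginning 84 and 34 bases before that start, each with 1 central base that is not A or T. Each is shown with 10 bases on either side, 5′ to 3′ on the minus strand and with the match in capitals. They are the only matches in the windows at hand, which covered 7 of the 10 genes. The window of Rgs5 (chr1:169655251-169655500, plus strand), whose start is the outer end of the gene, is shown beside them as one without a match.
Acta2, chr19:34255438-34255467: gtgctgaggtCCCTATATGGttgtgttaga
Acta2, chr19:34255388-34255417: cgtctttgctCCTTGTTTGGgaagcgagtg
Rgs5: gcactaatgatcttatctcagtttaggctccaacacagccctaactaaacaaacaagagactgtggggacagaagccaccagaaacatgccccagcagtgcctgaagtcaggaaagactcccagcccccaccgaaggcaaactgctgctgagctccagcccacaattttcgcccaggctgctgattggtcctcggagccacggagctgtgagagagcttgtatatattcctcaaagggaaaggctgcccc
Windows were at hand for 7 of the 10 genes and not for Myh11, Tagln and Pdgfrb, which were not searched. Besides that of Acta2, the other 6 windows (Cnn1, Rgs5, Cspg4, Notch3, Kcnj8 and Abcc9) held no match. The starts used for Abcc9, Cnn1 and Notch3 were likewise inside the gene, by 492, 32 and 6 bases. Among 32851 windows of the same length, 8.59% held at least 1 match and 0.67% held at least 2. A match describes these letters and is not evidence of binding.

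The fall of Acta2 in TAC+pimobendan relative to Sham+pimobendan kept its sign under all 20 alternatives run, from -2.12 to -1.45 on the log2 scale, and passed the test in 11 of them (limma adjusted p from 0.00529 to 0.184). The call was lost with no filter on low values (0.0643), with only the compared groups fitted (0.06), with the replicate block (0.0652), after GC correction (0.1; 0.184 with the block), and without Sham+pimobendan replicate 2 (0.0831), Sham+pimobendan replicate 3 (0.152), TAC+pimobendan replicate 2 (0.169) or TAC+pimobendan replicate 3 (0.152). Without TAC+pimobendan replicate 1, Acta2 also passed in TAC+pimobendan relative to TAC+control, at -1.29 (limma adjusted p = 0.0487), and in the interaction, at -1.885 (limma adjusted p = 0.0455). The Acta2 transcript has 50.2% GC, and the median of tested genes is 51.1%. After GC correction its log2 fold change was -1.80, without a call, in a fit that called 0 of 11334 genes. The part of GC content in the Acta2 result was not tested. In the main fit of this comparison, 2 of 7 endothelial markers were called lower (0.245% of all genes were). These 7 markers summed to 274 to 325 FPKM in TAC+pimobendan and 345 to 463 FPKM in Sham+pimobendan. Their part in the Acta2 result was not tested.

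**Figure D3:**
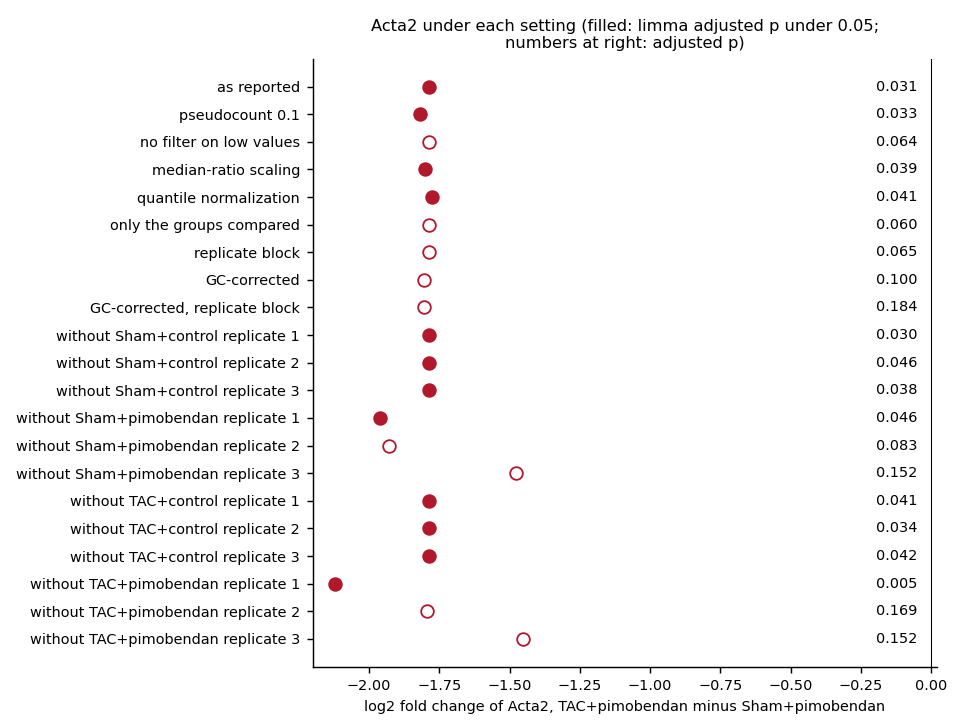
Log2 fold change of Acta2 (x axis), TAC+pimobendan minus Sham+pimobendan, as reported and under 20 alternatives (rows); filled points have a limma adjusted p under 0.05, printed at right. The value stays between -2.12 and -1.45, and 11 of the 20 alternatives are filled.

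The other 3 contractile genes were not called in any comparison. In TAC+pimobendan relative to Sham+pimobendan they had the same sign as Acta2, with log2 fold changes of -0.49 for Tagln, -0.36 for Cnn1 and -0.18 for Myh11. Myh11 encodes the smooth muscle myosin heavy chain (NCBI Gene 17880; chromosome 16, 14194527 to 14291408). It had 6.75, 5.22 and 4.11 FPKM in TAC+pimobendan, 3.88, 5.52 and 3.86 in TAC+control, 5.96, 6.13 and 6.18 in Sham+pimobendan, and 5.90, 6.16 and 8.37 in Sham+control. Every TAC+control library was below every sham library, and the TAC+pimobendan libraries overlapped both. Its log2 fold change in TAC+control relative to Sham+control was -0.53 ± 0.17 (95% confidence interval -0.89 to -0.16; limma adjusted p = 0.492), and in TAC+pimobendan relative to TAC+control it was 0.22 ± 0.17 (limma adjusted p = 0.422).

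Tagln encodes transgelin (SM22-alpha), an actin-binding protein of smooth muscle (NCBI Gene 21345; chromosome 9, 45929628 to 45936058). It had 16.7, 13.4 and 8.45 FPKM in TAC+pimobendan, 9.69, 16.4 and 10.7 in TAC+control, 18.3, 18.3 and 16.8 in Sham+pimobendan, and 14.9, 18.02 and 22.6 in Sham+control. All TAC+pimobendan libraries were below all Sham+pimobendan libraries, by a small margin at the nearest pair, and the TAC groups overlapped. The log2 fold change was -0.49 ± 0.23 in TAC+pimobendan relative to Sham+pimobendan (limma adjusted p = 0.219) and -0.57 ± 0.23 in TAC+control relative to Sham+control (limma adjusted p = 0.561). Tagln is the least certain of the 10 by sequence: 747 of the 1546 windows of 50 bases in its annotated transcript (48.3%) also occur in transcripts of other annotated genes, 688 of them in Gm48529 and 59 in Pcsk7. The corresponding share was 0.352% for Acta2, whose 7 shared windows are with Actg1 and pseudogenes, and 5.01% or less for the remaining genes. Whether reads were counted by strand is not given in the sources used here.

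Cnn1 encodes calponin, which restrains actomyosin in smooth muscle (NCBI Gene 12797; chromosome 9, 22099221 to 22109221). It lay near the filter limit of 1 FPKM, with 1.4, 0.92 and 0.59 FPKM in TAC+pimobendan, 0.44, 1.10 and 0.88 in TAC+control, 1.16, 1.37 and 2.01 in Sham+pimobendan, and 1.04, 1.73 and 2.23 in Sham+control. Libraries of the loaded and the sham groups met at about 1 FPKM, so the groups overlapped. The log2 fold change was -0.55 ± 0.21 in TAC+control relative to Sham+control (limma adjusted p = 0.561) and -0.36 ± 0.21 in TAC+pimobendan relative to Sham+pimobendan (limma adjusted p = 0.333). A pseudocount of 1 compresses the change of a gene this low: with 0.1 the first value became -0.98.

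Ratios of Acta2 to the other contractile genes within a library were chosen after the values were seen and are given with no test. Acta2 over Myh11 was 8.13, 6.59 and 5.13 in TAC+pimobendan, 21.9, 10.2 and 16.5 in TAC+control, 15.9, 16.2 and 30.2 in Sham+pimobendan, and 11.2, 9.21 and 16.1 in Sham+control. The 3 TAC+pimobendan ratios were the lowest of the 12. Acta2 over Tagln was 3.29, 2.57 and 2.49 in TAC+pimobendan, 8.79, 3.44 and 5.95 in TAC+control, 5.19, 5.42 and 11.1 in Sham+pimobendan, and 4.44, 3.15 and 5.95 in Sham+control. Acta2 over Cnn1 was 39.2, 37.4 and 35.7 in TAC+pimobendan, 194, 51.4 and 72.5 in TAC+control, 81.8, 72.4 and 92.8 in Sham+pimobendan, and 63.6, 32.8 and 60.3 in Sham+control. Against Tagln and against Cnn1, 1 Sham+control library fell among or below the TAC+pimobendan ratios. Tagln over Myh11 was 2.06 to 2.56 in TAC+pimobendan, 2.50 to 2.98 in TAC+control, 2.72 to 3.07 in Sham+pimobendan and 2.53 to 2.93 in Sham+control. This ratio too was lower in every TAC+pimobendan library than in any Sham+pimobendan library.

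**Figure D4:**
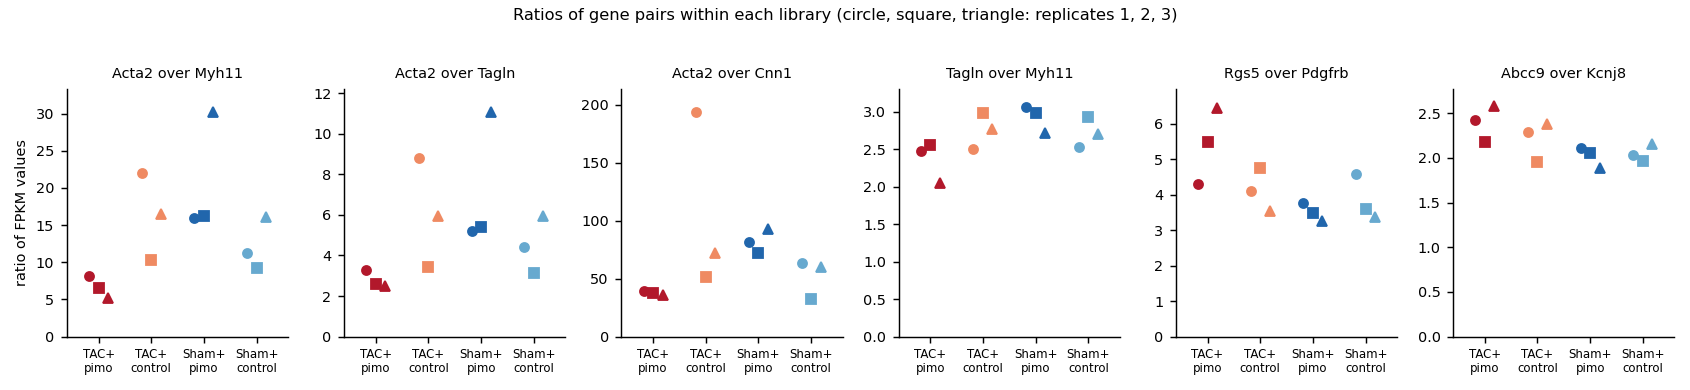
Ratios of FPKM values of gene pairs within each library (y axes from 0) by group (x axes); each point is 1 library. Acta2 over Myh11 is 5.13 to 8.13 in TAC+pimobendan and 15.9 to 30.2 in Sham+pimobendan. Tagln over Myh11 is 2.06 to 2.56 in TAC+pimobendan and 2.72 to 3.07 in Sham+pimobendan.

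Of the pericyte genes, Rgs5 encodes a regulator that shortens G-protein signalling and is widely used as a pericyte marker (NCBI Gene 19737; chromosome 1, 169655501 to 169695813). It had 110, 135 and 143 FPKM in TAC+pimobendan, 80.1, 113 and 80.2 in TAC+control, 90.6, 98.1 and 82.6 in Sham+pimobendan, and 120, 85.2 and 91.0 in Sham+control. Its 2 highest libraries were both TAC+pimobendan, and the third of that group was passed by 1 TAC+control and 1 Sham+control library. Group means were 129 ± 17.2 FPKM in TAC+pimobendan, 91.2 ± 19.1 in TAC+control, 90.4 ± 7.77 in Sham+pimobendan and 98.9 ± 18.8 in Sham+control (SD, n = 3 each). The log2 fold change was 0.51 in TAC+pimobendan relative to TAC+control (95% confidence interval 0.17 to 0.85) and -0.11 in Sham+pimobendan relative to Sham+control (-0.45 to 0.23).

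Rgs5 was close to the threshold, and leaving out certain single libraries moved it across. It passed in TAC+pimobendan relative to TAC+control without TAC+control replicate 2 (0.67, limma adjusted p = 0.0408) and without TAC+pimobendan replicate 1 (0.62, limma adjusted p = 0.0398). It passed in TAC+pimobendan relative to Sham+pimobendan without TAC+pimobendan replicate 1 (0.61, limma adjusted p = 0.0384). Many genes were called higher in these settings. Without TAC+pimobendan replicate 1 they were 1093 of 11383 relative to TAC+control and 1087 relative to Sham+pimobendan. Without TAC+control replicate 2 they were 337 of 11399 relative to TAC+control. The Rgs5 transcript has 43.3% GC, the lowest of the 10, and the TAC+pimobendan libraries leaned to transcripts of low GC. After GC correction its log2 fold change was 0.19 relative to TAC+control (limma adjusted p = 0.356) and 0.18 relative to Sham+pimobendan (limma adjusted p = 0.484). With that correction 0 of 11334 genes were called in either comparison. The part of GC content in the Rgs5 values was not tested.

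Pdgfrb encodes the receptor through which pericytes and smooth muscle cells respond to platelet-derived growth factor B (NCBI Gene 18596; chromosome 18, 61045150 to 61085067). It had 25.5, 24.5 and 22.2 FPKM in TAC+pimobendan, 19.5, 23.8 and 22.7 in TAC+control, 24.1, 28.2 and 25.4 in Sham+pimobendan, and 26.3, 23.8 and 27.1 in Sham+control. Every TAC+control library was below every Sham+control library, narrowly at the nearest pair, and TAC+pimobendan overlapped TAC+control. The log2 fold change was -0.22 ± 0.10 in TAC+control relative to Sham+control (limma adjusted p = 0.593) and 0.13 ± 0.10 in TAC+pimobendan relative to TAC+control (limma adjusted p = 0.433). Rgs5 over Pdgfrb was 4.30, 5.49 and 6.43 in TAC+pimobendan, 4.11, 4.76 and 3.53 in TAC+control, 3.76, 3.48 and 3.25 in Sham+pimobendan, and 4.58, 3.58 and 3.36 in Sham+control, so that TAC+pimobendan held the 2 highest ratios.

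Notch3 encodes the Notch receptor of arterial smooth muscle and pericytes (NCBI Gene 18131; chromosome 17, 32120820 to 32166896). It had 9.05, 9.0 and 9.14 FPKM in TAC+pimobendan, 8.13, 9.40 and 9.17 in TAC+control, 7.22, 10.7 and 9.37 in Sham+pimobendan, and 10.3, 8.46 and 11.2 in Sham+control. The groups overlapped throughout, and the TAC+pimobendan libraries agreed within 0.0709 FPKM (SD). Its log2 fold change was 0.03 (95% confidence interval -0.26 to 0.31) in TAC+pimobendan relative to TAC+control and -0.15 (-0.43 to 0.14) in TAC+control relative to Sham+control.

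Cspg4 encodes NG2, a surface proteoglycan of pericytes and of oligodendrocyte precursors (NCBI Gene 121021; chromosome 9, 56865104 to 56899870). It had 5.32, 5.72 and 4.18 FPKM in TAC+pimobendan, 3.69, 5.76 and 4.58 in TAC+control, 3.73, 6.26 and 5.35 in Sham+pimobendan, and 5.95, 3.83 and 6.15 in Sham+control. The groups overlapped in every pairing, and the 95% confidence interval of its log2 fold change included 0 in each of the 4 comparisons, from -0.32 to 0.53 in TAC+pimobendan relative to TAC+control and from -0.57 to 0.28 in TAC+control relative to Sham+control.

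The vascular ATP-sensitive potassium channel has a pore subunit, Kir6.1, from Kcnj8 and a regulatory subunit, SUR2, from Abcc9. The genes are neighbours on chromosome 6, with 16247 bases between them in RefSeq (Kcnj8, NCBI Gene 16523, 142564837 to 142571614; Abcc9, NCBI Gene 20928, 142587862 to 142702766). The deposited row of Kcnj8 has a wider span, 142545018 to 142571647, and gives the plus strand, while RefSeq's promoter window is on the minus strand. What this does to its FPKM was not tested. Abcc9 is also expressed in cardiac muscle, so it marks mural cells less strictly than Kcnj8 does. Kcnj8 had 28.0, 29.1 and 28.8 FPKM in TAC+pimobendan, 23.2, 25.9 and 24.7 in TAC+control, 25.4, 31.1 and 28.9 in Sham+pimobendan, and 30.7, 29.9 and 26.3 in Sham+control. The 3 TAC+control libraries lay below all TAC+pimobendan and all Sham+control libraries. The log2 fold change was 0.21 ± 0.09 in TAC+pimobendan relative to TAC+control (limma adjusted p = 0.162) and -0.23 ± 0.09 in TAC+control relative to Sham+control (limma adjusted p = 0.561).

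Abcc9 had 68.1, 63.4 and 74.4 FPKM in TAC+pimobendan, 53.0, 50.5 and 58.7 in TAC+control, 53.5, 63.8 and 54.4 in Sham+pimobendan, and 62.4, 58.7 and 56.8 in Sham+control. TAC+pimobendan lay above TAC+control and Sham+control without overlap and met Sham+pimobendan at 1 library. Group means were 68.6 ± 5.52 FPKM in TAC+pimobendan, 54.1 ± 4.21 in TAC+control, 57.2 ± 5.70 in Sham+pimobendan and 59.3 ± 2.89 in Sham+control (SD, n = 3 each). Abcc9 has 47.0% GC, and after GC correction its log2 fold change in TAC+pimobendan relative to TAC+control was 0.15 (limma adjusted p = 0.335), against 0.34 uncorrected. The part of GC content in this value was not tested. Abcc9 did not pass in any of the 20 alternatives to that comparison. Abcc9 over Kcnj8 was 2.18 to 2.58 in TAC+pimobendan, 1.95 to 2.37 in TAC+control, 1.88 to 2.11 in Sham+pimobendan and 1.96 to 2.16 in Sham+control. The related ATP-sensitive potassium channel genes Kcnj11 and Abcc8, which encode Kir6.2 and SUR1, were not called in any of the 4 comparisons.

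Further genes of the same pathways, listed with earlier results of these data known, gave few calls. Of the contractile apparatus of smooth muscle, 20 genes were in the table and 17 were tested. In TAC+pimobendan relative to TAC+control 1 of the 17 was called higher, Pln, which encodes phospholamban and is mainly a cardiac muscle gene in the ventricle (0.50 ± 0.10, limma adjusted p = 0.0409). In TAC+pimobendan relative to Sham+pimobendan 2 were called higher, Pln (0.52 ± 0.10, limma adjusted p = 0.0314) and Ppp1r12a, the targeting subunit of myosin phosphatase (0.53 ± 0.13, limma adjusted p = 0.039). Of all genes, 3.15% were called higher in the first comparison and 4.64% in the second. The list's median log2 fold change was -0.03 in the first and -0.11 in the second, beside 0.10 and -0.01 for all genes. The other 2 comparisons called none of the 17.

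Of 20 further pericyte markers, all tested, 2 were called higher in TAC+pimobendan relative to TAC+control and 1 in TAC+pimobendan relative to Sham+pimobendan, beside 3.15% and 4.64% of all genes called higher. Angpt1, the ligand of the endothelial receptor TIE2, had 4.30, 9.22 and 10.03 FPKM in TAC+pimobendan, 2.50, 4.54 and 2.39 in TAC+control, 2.98, 3.00 and 3.31 in Sham+pimobendan, and 4.30, 2.91 and 2.55 in Sham+control. The high values were those of 2 TAC+pimobendan libraries, and the log2 fold change was 1.06 ± 0.26 relative to TAC+control (limma adjusted p = 0.0488) and 1.04 ± 0.26 relative to Sham+pimobendan (limma adjusted p = 0.0444). Gucy1a1, a subunit of the nitric oxide receptor guanylate cyclase, had 5.22, 5.34 and 5.91 FPKM in TAC+pimobendan and 3.81, 3.6 and 3.24 in TAC+control, without overlap (0.51 ± 0.11, limma adjusted p = 0.0431). These transcripts are also of low GC content, 39.0% for Angpt1, 47.3% for Gucy1a1, 43.4% for Pln and 42.5% for Ppp1r12a. None of their calls held after GC correction. With that correction 0 of 11334 genes were called in either comparison, so the loss is not particular to these transcripts. Corrected log2 fold changes were 0.60 for Angpt1, 0.33 for Gucy1a1 and 0.19 for Pln relative to TAC+control, and 0.17 for Ppp1r12a relative to Sham+pimobendan. With the replicate block, limma adjusted p relative to TAC+control was 0.0817 for Gucy1a1, 0.0854 for Angpt1 and 0.0788 for Pln. Over the 20 alternatives the call was kept in 6 for Gucy1a1, 3 for Angpt1 and 7 for Pln relative to TAC+control, and in 5 for Angpt1, 11 for Pln and 6 for Ppp1r12a relative to Sham+pimobendan. The median of the 20 markers was 0.20 in TAC+pimobendan relative to TAC+control and -0.12 in TAC+control relative to Sham+control, beside 0.10 and -0.06 for all genes.

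No call was made in any of the 4 comparisons for 10 tested regulators of the SRF and myocardin class, 6 ligands and receptors of the PDGF family, 18 genes of the Notch pathway, 8 RGS proteins and 3 calponin and transgelin relatives. Srf had 44.7, 39.1 and 39.0 FPKM in TAC+pimobendan and 68.8, 41.3 and 61.6 in TAC+control, overlapping at 1 library of TAC+control, with a log2 fold change of -0.45 ± 0.15 (limma adjusted p = 0.0958). Pdgfd, a PDGFRB ligand, stood at 0.59 ± 0.17 in the same comparison (limma adjusted p = 0.0598). In TAC+control relative to Sham+control, the Notch ligand gene Dll4 stood at -0.43 ± 0.11 (limma adjusted p = 0.408) and the Notch target Hes1 at -0.78 ± 0.27 (limma adjusted p = 0.542). Among 4 tested actin isoforms other than Acta2, Actc1, the cardiac alpha-actin, fell in TAC+pimobendan relative to TAC+control (-0.53 ± 0.13, limma adjusted p = 0.0482; 0.0885 with the replicate block), a call kept in 3 of 20 alternatives. Its value was -0.077 with quantile normalization (limma adjusted p = 0.456) and -0.55 after GC correction (limma adjusted p = 0.102). Acta1, the skeletal alpha-actin, stood at -1.46 ± 0.60 there (limma adjusted p = 0.144).

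Markers of other cells in the ventricle were set beside these values. Endothelial genes called lower in TAC+pimobendan relative to Sham+pimobendan were Esam (-0.39 ± 0.10, limma adjusted p = 0.0409) and Pecam1 (-0.45 ± 0.12, limma adjusted p = 0.0497). They were 2 of 7, beside 0.245% of all genes called lower. The call was kept in 8 of 20 alternatives for Esam and 4 for Pecam1. Neither held after GC correction, where 0 of 11334 genes were called. The 6 fibroblast markers summed to 387 to 465 FPKM in TAC+pimobendan, 317 to 403 in TAC+control, 298 to 358 in Sham+pimobendan and 319 to 420 in Sham+control, with none called. The 4 activated fibroblast markers had a median log2 fold change of -0.39 in TAC+pimobendan relative to Sham+pimobendan, beside -0.01 for all genes. There 3 were negative, Postn was at 0.53 ± 0.25 (limma adjusted p = 0.234), and their part in the Acta2 result was not tested. No activated fibroblast, atrial muscle or macrophage marker was called in any comparison. Red cell genes summed to 1142 to 2281 FPKM in TAC+pimobendan, 4199 to 6702 in TAC+control, 452 to 1906 in Sham+pimobendan and 1553 to 3063 in Sham+control. The TAC+control libraries were thus the highest in red cell RNA, and the part of this in the lower FPKM of mural genes there was not tested. Of these, Alas2, an enzyme of haem synthesis, was called lower in TAC+pimobendan relative to TAC+control (-1.22 ± 0.26, limma adjusted p = 0.0409; 0.0788 with the replicate block), as was the cardiomyocyte gene Actn2, a Z-disc protein (-0.38 ± 0.08, limma adjusted p = 0.0409; 0.0788 with the replicate block). Each call was kept in 6 of 20 alternatives and lost after GC correction (limma adjusted p = 0.101 for both), and Actn2 was at -0.16 with quantile normalization. Cardiomyocyte markers summed to 17890 to 21060 FPKM over all 12 libraries. Of the 4 skeletal muscle genes listed, 3 had a mean under 1 FPKM in each group, and Myh1 and Myh4 did not exceed 0.01 FPKM in any library. The 4 summed to 2029 to 2866 FPKM over all 12 libraries. Ckm, the 1 gene of this list that was tested, was not called in any comparison. It stood at -0.35 ± 0.10 in TAC+pimobendan relative to TAC+control (limma adjusted p = 0.06).

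The genes whose log2 values were most like those of each mural gene over the 12 libraries are given as a description. For Myh11 the nearest was Tagln (Pearson's r = 0.936), and Myh11 was among the 3 nearest of Tagln, after Mcm7 (0.95) and Btd (0.938). No other mural gene had another of the 10 among its 3 nearest. Those of Acta2 were Raver2 (0.939), Capns1 (0.929) and Sf3b4 (0.927), and those of Rgs5 were Cyyr1 (0.976), Stag1 (0.969) and Hnrnpa3 (0.966). Abcc9 had Phf11d first (0.947), Pdgfrb had Rab8a (0.946), Cspg4 had Lyrm4 (0.954), Notch3 had Dram1 (0.907), Cnn1 had Tmem206 (0.905) and Kcnj8 had Gng2 (0.886). The 12 libraries share 4 groups and differ in GC trend, and both enter such values.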

How the data were processed

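Libraries were made from left ventricular mRNA, selected with oligo(dT) beads per the labels' protocols, of 12 mice, 3 per group. The authors deposited one table with FPKM and TPM per gene and library, rounded to 2 decimals, and within a library the deposited TPM was 1.55 to 1.69 times the FPKM. The submitters' processing notes name RSEM 1.2.12, HISAT2 2.0.4, DESeq2 1.4.5 and Bowtie2 2.2.5 beside build GRCm38 and give none of them a role. Because these are not counts, neither intervals for counting error nor limits of detection could be set.

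FPKM was analysed as log2(FPKM + 1) with limma 3.58.1 (trended variances) in R 4.3.3, in 1 fit of all 12 libraries with 8 residual degrees of freedom. The filter kept 11415 genes that reached 1 FPKM in 3 or more libraries. Calls were made at 0.05 after Benjamini-Hochberg adjustment over all of them. Fold changes of FPKM + 1 understate the change of low genes. The planned count model was not applicable. The script was tested on simulated data.

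The 10 genes and all lists were chosen with earlier results of these data known. All 10 were named, with each called gene and the 2 of smallest p of the lists described, and the 3 genes most alike to each by Pearson's r. Alternatives were a pseudocount of 0.1, no filter, median-ratio scaling, quantile normalization, only the groups compared, the replicate number as a block, and leaving out each library. A loess correction for transcript GC content (11334 genes), alone and with the block, was chosen after seeing the data. Deviations of same-numbered libraries from their group means correlated at 0.101 to 0.208 between TAC+pimobendan and TAC+control. Differently numbered libraries reached 0.0276 between these groups and 0.434 between others. No label says that numbers pair mice, so pairing was not established, and the main fit used none. Between other groups, same-numbered libraries correlated at -0.44 to 0.253, with at least 1 pair per comparison under 0.1. The replicate block was all the same fitted over all 12 libraries and applied to every comparison. Shared sequence was searched in GENCODE M21 transcripts (GRCm38) in windows of 50 bases.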

Additional observations from a re-analysis of the deposited data

How the results depend on the processing

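Of 989 values of the 10 genes under alternatives, 924 kept their direction and side of the threshold, 9 lost the call (all Acta2 in TAC+pimobendan relative to Sham+pimobendan), 5 gained one and 51 changed sign, each sign change in a value that had not passed. Of 220 values of other named genes, 155 lost the call. Genes called in TAC+pimobendan minus TAC+control (373) became 0 with no filter, 1 with median-ratio scaling, 0 with quantile normalization, 0 with only the groups compared, 1 with the replicate block, 0 with GC correction and 0 with GC correction and the block, and 0 to 1187 without 1 library. Genes called in TAC+pimobendan minus Sham+pimobendan (558) became 298 with quantile normalization and 0 to 1222 without 1 library. With no filter, only the groups compared, the replicate block, GC correction, or GC correction and the block, both this count and that of the 10 genes became 0. Genes called in TAC+control minus Sham+control became 2 with only the groups compared and 0 to 4 without 1 library, and in the interaction 0 to 772. Without 1 library, 0 to 2 of the 10 genes were called in each of the 2 comparisons of TAC+pimobendan, and 0 to 1 in the interaction. Both 1187 and 1222, and 772, were reached without TAC+pimobendan replicate 1. The causes were not tested. Quantile normalization moved the median log2 fold change of all genes from 0.10 to -0.02 in TAC+pimobendan minus TAC+control, and the signs of small values turned with it. There, Tagln became -0.030 with median-ratio scaling, -0.057 with quantile normalization and -0.029 with GC correction (with the block as well), Notch3 -0.047 with median-ratio scaling and -0.10 with quantile normalization, and with the last Cnn1 -0.045 and Cspg4 -0.075. In Sham+pimobendan minus Sham+control, Pdgfrb became -0.0017 with median-ratio scaling, -0.0057 with quantile normalization and -0.044 with GC correction (with the block as well). In TAC+pimobendan minus Sham+pimobendan, Notch3 became -0.0019 with median-ratio scaling and -0.038 with quantile normalization, and Cspg4 -0.0064 and -0.078 with the same settings. In the interaction, Tagln became -0.0046 and Cspg4 -0.034 with quantile normalization. Leaving out 1 library gave, in TAC+control minus Sham+control, -0.48 to 0.14 for Acta2 and -0.28 to 0.029 for Rgs5. In TAC+pimobendan minus TAC+control it gave -0.033 to 0.27 for Cnn1, -0.16 to 0.30 for Tagln, -0.031 to 0.063 for Notch3 and -0.025 to 0.24 for Cspg4. In Sham+pimobendan minus Sham+control it gave -0.21 to 0.012 for Myh11, -0.255 to 0.076 for Cnn1, -0.17 to 0.11 for Tagln, -0.21 to 0.034 for Rgs5, -0.0495 to 0.058 for Pdgfrb, -0.24 to 0.012 for Notch3, -0.23 to 0.13 for Cspg4 and -0.093 to 0.051 for Kcnj8. In TAC+pimobendan minus Sham+pimobendan it gave -0.13 to 0.12 for Notch3, -0.17 to 0.14 for Cspg4 and -0.065 to 0.078 for Kcnj8, and in the interaction -0.12 to 0.33 for Tagln and -0.023 to 0.33 for Cspg4. The replicate block changed no other call among the 10 genes.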
